A study of Homo sapiens with 30 samples.

Results

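The T-cell receptor signalling components described here are 52 genes, in 6 roles. They comprise 4 CD3 chains, 5 further surface receptors, 11 tyrosine kinases, 9 adaptors, 11 enzymes and effectors, and 12 inhibitors. They were chosen by name, through the gene symbol that the platform table gives each probe. Of the 52 genes, 51 had a named probe. A gene entered the analysis where a probe was detected (detection p under 0.01) on 3 or more of 30 arrays, which 48 of the 52 genes were, with 94 probes, out of 12482 genes and 22652 probes in all. TXK and TEC, kinases of the TEC family, and NFATC2, a calcium-regulated transcription factor, had probes that did not pass. GRAP2, an adaptor that binds LCP2, was not analysed here.

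RNA was measured in 5 malignant T-cell lines, either exposed to CHOEP for 24 h at the IC50 of each line or left untreated. CHOEP is cyclophosphamide, doxorubicin, vincristine, prednisone and etoposide given together. The T-cell leukaemia lines are HD-MAR-2 (HDMAR in the labels) and JURKAT, while SUP-T1 (SUPT1) derives from lymphoblastic T-cell lymphoma, KARPAS-299 (KARPAS) from anaplastic large cell lymphoma and HH from cutaneous T-cell lymphoma. Each of the 10 groups held 3 cultures, which the submitters call biological replicates, and each culture had 1 array. Since each line is 1 source of cells, the spread among 3 cultures says nothing about other lines of the same disease. In a whole culture, fewer cells expressing a gene and less RNA per cell cannot be told apart. The 6 arrays of a line shared 1 chip, on which CHOEP and untreated arrays lay in separate blocks of positions, so line and chip cannot be told apart, nor can treatment and position.

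The T-cell receptor has no enzyme of its own. When it meets antigen, kinases of the SRC family phosphorylate the tails of the CD3 chains, ZAP70 binds there, and the adaptors LAT and LCP2 then gather the enzymes that open the calcium, RAS and NF-kappaB branches. Phosphatases, ubiquitin ligases and CSK hold the same steps in check. Mature T-cell lymphomas often lose parts of this receptor complex.

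Levels below are normalised log2 signals, in which 1 unit is a 2-fold difference of signal. They compare arrays for 1 gene, and never 1 gene with another. A line was called higher or lower than the mean of the other 4 lines, and a gene was called up or down with CHOEP, where the difference was 2-fold or more and the Benjamini-Hochberg adjusted p of limma lay below 0.05. Between 16003 and 18239 probes were detected per array, with a median signal of 81.1 to 122.6, and 30 of 30 arrays lay nearest to an array of their own line. Of these, 28 lay nearest to their own group. In JURKAT, CHOEP replicate 3 and untreated replicate 1 lay nearest to an array of the other treatment. ALK, whose gene is rearranged in KARPAS-299, was at 12.90 to 13.23 on the KARPAS-299 arrays and at 6.37 or below on all others. Of 8 T-cell markers listed, 4 could be tested (TRAT1, BCL11B, GATA3 and CD28). All 4 were detected on every untreated array of HD-MAR-2, SUP-T1 and JURKAT, 3 of 4 in HH, and 0 of 4 on any of the 6 KARPAS-299 arrays. The T-cell label of KARPAS-299 was therefore not borne out by these 4 genes, although CD3D and CD247 were detected in it. Their summed normalised signal on the linear scale was 114.9 to 126.5 on the KARPAS-299 arrays and 3015 to 13420 on those of the other lines. Of 7 myeloid markers 5 could be tested, and 2 or 3 of these were detected on all untreated arrays of each line. CSF1R was called higher in untreated KARPAS-299, with a mean of 11.19 against 4.90 to 7.17 in the other lines. CD14, LYZ, ITGAM and CD68 were called neither higher nor lower there.

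In untreated cultures the lines differed first in how much of the pathway they expressed. HD-MAR-2 had 45 of 48 genes detected on 3 of 3 arrays (77.2% of all genes tested), JURKAT 44 (77.9%), SUP-T1 40 (75.6%), HH 36 (73.1%) and KARPAS-299 34 (73.6%). Of the 48 genes, 25 were detected on every untreated array of every line (59.4% of all genes). Another 19 were detected on 3 of 3 arrays of 1 line or more and on 0 of 3 of another (28% of all genes). Against the mean of the other lines, untreated HD-MAR-2 was higher in 22 of 48 genes (12% of all genes) and lower in 3 (11.4%). SUP-T1 was higher in 13 (13%) and lower in 10 (13%). KARPAS-299 was higher in 8 (13.9%) and lower in 24 (14.4%). JURKAT was higher in 15 (11.5%) and lower in 8 (9.64%). HH was higher in 8 (12.4%) and lower in 19 (15.9%). The median difference of the 48 genes from the other lines was 0.23 in SUP-T1, 0.80 in HD-MAR-2, 0.55 in JURKAT, −0.95 in KARPAS-299 and −0.72 in HH, on the log2 scale, with signals below detection included as measured. Over all genes these medians lay between −0.12 and 0.05. All 48 genes differed among the untreated lines by the F test at an adjusted p under 0.05, as did 95.5% of all genes, and a gene that passed detection through 1 line alone had to differ.

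**Figure D1:**
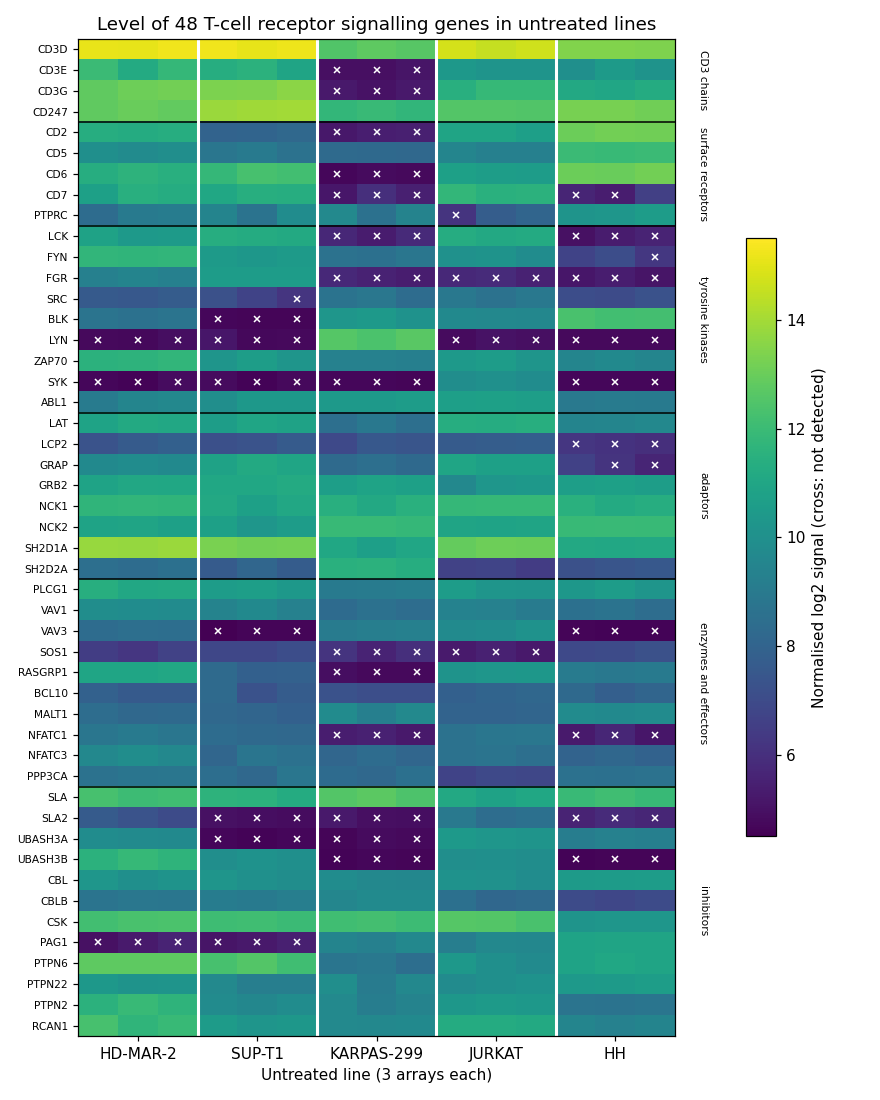
Normalised log2 signal of the 48 T-cell receptor signalling genes on each of the 3 untreated arrays of the 5 lines, with genes ordered by role from CD3 chains at the top to inhibitors at the bottom. A cross marks an array on which the gene was not detected, and the crosses of KARPAS-299 fall on CD3E, CD3G, CD2, CD6, CD7, LCK, FGR, SYK and 6 further genes.

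The CD3 chains were complete in 4 lines and incomplete in KARPAS-299. CD3E, the epsilon chain needed to assemble the receptor at the surface, was at 4.95, 4.96 and 5.11 on the untreated KARPAS-299 arrays and not detected there. It was at 11.98, 11.21 and 11.84 in HD-MAR-2, at 11.36, 11.55 and 10.91 in SUP-T1, at 10.37, 10.18 and 10.17 in JURKAT and at 9.98, 10.49 and 10.14 in HH. Against the signal needed for detection, CD3E in KARPAS-299 was at least 14.5-fold below HH and at least 40.4-fold below HD-MAR-2 (adjusted p 4.46e-20 against the other lines). A gene undetected in 1 line passed detection only through the lines that have it.

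CD3G, the gamma chain that pairs with CD3E, showed the same gap. Its 3 untreated KARPAS-299 arrays were at 5.23, 5.05 and 5.24, all not detected. The other lines were at 13.33, 13.38 and 13.58 in SUP-T1, 12.83, 13.08 and 13.17 in HD-MAR-2, while JURKAT gave 11.44, 11.86 and 11.89 and HH 11.13, 10.99 and 11.26. The lowest of these lay far above every KARPAS-299 array, and the bound ran from at least 27.5-fold against HH to at least 136-fold against SUP-T1.

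CD3D, the delta chain, was detected in KARPAS-299 all the same, at 12.49, 12.75 and 12.65, although lower than in the other lines (difference −1.97, SE 0.08, adjusted p 1.223e-18). It was at 15.15, 15.10 and 15.25 in HD-MAR-2, at 15.27, 15.08 and 15.20 in SUP-T1, at 14.79, 14.53 and 14.72 in JURKAT and at 13.41, 13.43 and 13.35 in HH. CD247, the zeta chain, was likewise lowest in KARPAS-299, at 11.77, 11.97 and 11.76, and highest in SUP-T1, at 13.83, 13.92 and 13.98 (difference of SUP-T1 from the other lines 1.29, SE 0.07, adjusted p 3.955e-15). On chromosome 11 (GRCh38.p14) CD3E, CD3D and CD3G lie side by side, with 22780 bases between CD3E and CD3D and 1638 bases between CD3D and CD3G. The detected CD3D and the undetected CD3G are thus direct neighbours. The RefSeq promoter window of CD3D (its start and the bases before it) is shown as the side of CD3D that faces CD3G. Capitals mark GGAAA or its reverse complement, the core that NFAT proteins bind. There were 3 matches on both strands together, a number that 9.94% of all 35116 promoter windows reach.
CD3D, chr11:118342656-118342955, minus strand: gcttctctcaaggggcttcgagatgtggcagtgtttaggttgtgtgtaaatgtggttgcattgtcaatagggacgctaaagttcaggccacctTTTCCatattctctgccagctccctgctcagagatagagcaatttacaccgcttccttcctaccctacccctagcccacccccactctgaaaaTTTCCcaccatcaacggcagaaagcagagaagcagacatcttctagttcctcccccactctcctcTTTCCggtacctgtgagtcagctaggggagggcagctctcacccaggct

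Surface receptors next to the complex were missing from KARPAS-299 too. CD2, an adhesion receptor that lowers the threshold of activation, was at 5.21, 5.43 and 5.45 in untreated KARPAS-299 and not detected. It was at 11.35, 11.28 and 11.33 in HD-MAR-2, at 7.99, 8.06 and 8.23 in SUP-T1, at 10.91, 10.93 and 10.72 in JURKAT and at 13.05, 13.14 and 13.12 in HH. The 5 lines did not overlap, and the bound of KARPAS-299 ran from at least 3.36-fold below SUP-T1 to at least 109-fold below HH.

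CD6, a scavenger receptor that attaches to the complex, was at 4.67, 4.83 and 4.79 in KARPAS-299, not detected, against 11.83, 12.28 and 12.17 in SUP-T1, 11.36, 11.60 and 11.46 in HD-MAR-2, 10.74, 10.62 and 10.58 in JURKAT and 13.02, 12.99 and 13.16 in HH. CD7, a T-cell surface glycoprotein often absent from cutaneous lymphomas, was at or below the limit of detection in 2 lines. It was not detected in KARPAS-299 (5.18, 5.97 and 5.45) and was detected on 1 of 3 untreated HH arrays (5.65, 5.39 and 6.60, the last one detected). In HD-MAR-2 it was at 10.73, 11.44 and 11.33, in SUP-T1 at 11.04, 11.38 and 11.34, and in JURKAT at 11.77, 11.50 and 11.55. CD5, a negative regulator related to CD6, was detected everywhere and was highest in HH (mean 11.96 against 8.27 to 9.91 in the other lines). PTPRC (CD45), the phosphatase that primes SRC family kinases, was lowest in JURKAT, at 6.16, 7.76 and 8.07, where 1 array did not detect it, and highest in HH at 10.19, 10.29 and 10.58.

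The tyrosine kinases gave each line its own set. LCK, the kinase that normally phosphorylates the CD3 tails, was at 5.71, 5.33 and 5.82 in untreated KARPAS-299 and at 5.01, 5.35 and 5.62 in HH, with none of these arrays detecting it. It was at 10.86, 10.42 and 10.49 in HD-MAR-2, at 11.37, 11.27 and 11.20 in SUP-T1 and at 11.33, 11.14 and 11.21 in JURKAT. All 4 LCK probes gave this split, and LCK in HH was at least 19.1-fold below HD-MAR-2 and at least 30.9-fold below SUP-T1. FYN, the other SRC kinase usual in T cells, was at 6.71, 7.08 and 6.30 in HH (2 of 3 arrays detected), 8.64, 8.54 and 8.81 in KARPAS-299, while JURKAT had 10.04, 10.17 and 9.85. It was at 10.50, 10.33 and 10.48 in SUP-T1 and 11.74, 11.68 and 11.75 in HD-MAR-2. These 5 lines did not overlap, and the 2 lines without LCK were also those with the lowest FYN. A dimmer FYN probe was detected on 1 of 3 untreated HH arrays, and the remaining FYN probes on 0 of 3.

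Kinases better known from B and myeloid cells varied the other way in part. BLK, a SRC kinase of B cells, was highest in HH, at 12.32, 12.16 and 12.22 (adjusted p 5.659e-25 against the other lines), followed by KARPAS-299 at 10.28, 10.40 and 10.12, JURKAT at 9.72, 9.62 and 9.61 and HD-MAR-2 at 8.75, 8.60 and 8.73. It was not detected in SUP-T1 (4.69, 4.64 and 4.66), which stood at least 67.3-fold below HH. LYN, a SRC kinase of B and myeloid cells, was detected in KARPAS-299 alone, at 12.59, 12.39 and 12.68, while the other 12 untreated arrays lay between 4.73 and 5.15. The bounds for the 4 other lines ran from at least 74.6-fold to at least 91.9-fold.

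FGR, a SRC kinase of myeloid cells, was detected in HD-MAR-2 (9.27, 9.46 and 9.30) and in SUP-T1 (10.59, 10.56 and 10.57). Its main probe was detected on none of the untreated arrays of KARPAS-299 (5.79, 5.57 and 5.37), JURKAT (5.76, 5.83 and 5.54) or HH (5.18, 5.39 and 5.11), and a second probe on 1 of 3 in JURKAT. SRC itself was at 7.24, 6.72 and 6.18 in SUP-T1, 7.63, 7.54 and 7.71 in HD-MAR-2, 8.91, 8.64 and 8.89 in JURKAT, 8.67, 8.86 and 8.37 in KARPAS-299 and 7.12, 7.03 and 7.27 in HH, with 1 SUP-T1 array not detected. Its second probe was detected on 1 of 3 arrays each in HD-MAR-2 and JURKAT and on none in the other lines.

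ZAP70, the kinase that docks on phosphorylated CD3 chains, was detected in all 5 lines. It was at 10.25, 10.62 and 10.23 in SUP-T1, 11.58, 11.62 and 11.74 in HD-MAR-2, 10.45, 10.56 and 10.23 in JURKAT, 9.33, 9.34 and 9.26 in KARPAS-299 and 9.52, 9.72 and 9.49 in HH. A dimmer ZAP70 probe was detected on 1 of 3 untreated SUP-T1 arrays, and another on 0 of 3 in SUP-T1 and in KARPAS-299. With the brightest ZAP70 probe, SUP-T1 and JURKAT overlapped, and the other lines stood apart. SYK, its relative from B cells, was detected in JURKAT alone, at 9.88, 10.01 and 9.85, against 4.62 to 4.89 on the other 12 untreated arrays, at least 11.9-fold and up to at least 14.7-fold lower. ABL1, a non-receptor kinase that phosphorylates several adaptors of the pathway, had means from 9.01 in HH to 10.72 in JURKAT.

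**Figure D2:**
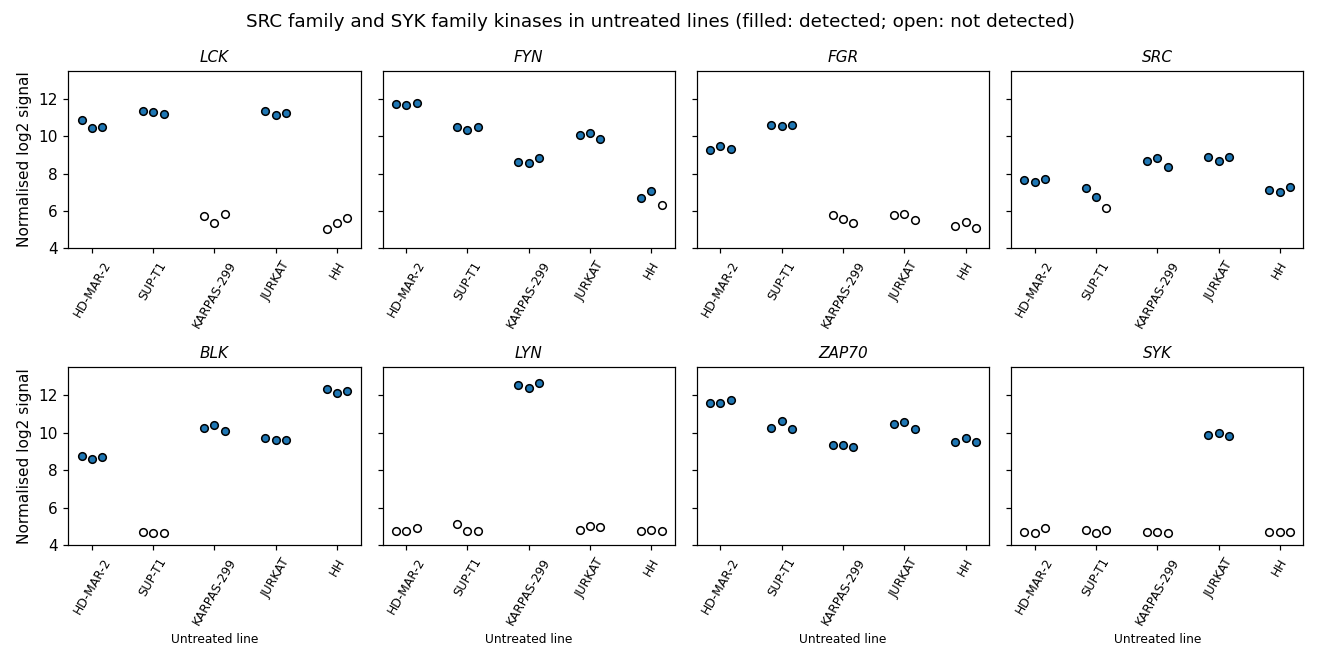
Normalised log2 signal of the SRC family kinases LCK, FYN, FGR, SRC, BLK and LYN and of ZAP70 and SYK on the 3 untreated arrays of each line, with filled points for detected and open points for not detected. LCK is open in KARPAS-299 and HH, LYN is filled only in KARPAS-299 (12.39 to 12.68) and SYK only in JURKAT (9.85 to 10.01).

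Most adaptors were present in every line. LAT, the membrane scaffold phosphorylated by ZAP70, was lowest in KARPAS-299, at 8.50, 8.92 and 8.50, and low in HH, at 9.45, 9.53 and 9.63. It was at 10.62, 10.97 and 10.84 in SUP-T1, 10.89, 11.18 and 11.11 in HD-MAR-2 and 11.34, 11.32 and 11.40 in JURKAT (KARPAS-299 against the other lines −2.05, SE 0.09, adjusted p 7.702e-17). LCP2 (SLP-76), which links LAT to VAV1 and PLCG1, was not detected in HH (6.23, 6.12 and 5.99) and lay between 6.94 and 7.86 in the other 4 lines, which put HH at least 1.94-fold below KARPAS-299.

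GRAP, a GRB2-like adaptor of lymphocytes, had means of 6.14 ± 0.50 in HH (SD, n = 3, with 1 array detected) and 8.36 ± 0.15 in KARPAS-299, against 9.77 to 10.99 in the other lines. SH2D2A, an adaptor that binds LCK, ran the opposite way, with 11.47 ± 0.12 in KARPAS-299 and 6.62 to 8.48 in the others. SH2D1A, the adaptor of the SLAM receptors, had 10.92 ± 0.20 in KARPAS-299 and 11.12 ± 0.03 in HH, against 13.00 to 13.81 elsewhere. GRB2, NCK1 and NCK2, adaptors in use far beyond T cells, had means between 10.10 and 11.92 in the untreated lines.

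Among the enzymes, PLCG1, which makes the calcium signal, was detected everywhere and was lowest in KARPAS-299 (9.02, 9.09 and 9.14), against 10.60, 10.66 and 10.36 in SUP-T1, 11.41, 11.08 and 11.16 in HD-MAR-2, 10.57, 10.23 and 10.21 in JURKAT and 10.32, 10.58 and 10.23 in HH. RASGRP1, the RAS activator that answers to diacylglycerol, was not detected in KARPAS-299 (4.93, 4.79 and 4.78). It was at 8.29, 7.88 and 7.92 in SUP-T1, 10.98, 10.96 and 11.10 in HD-MAR-2, 10.14, 10.27 and 10.32 in JURKAT and 9.07, 8.89 and 9.05 in HH, so that the bound ran from at least 3.22-fold to at least 25.5-fold.

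VAV3, a guanine nucleotide exchange factor, was not detected in SUP-T1 (4.54, 4.65 and 4.64) or HH (4.65, 4.61 and 4.62). It was at 8.37, 8.52 and 8.47 in HD-MAR-2, 9.09, 9.20 and 9.28 in KARPAS-299 and 9.74, 9.87 and 10.12 in JURKAT. VAV1, its relative typical of blood cells, was detected in all lines (means 8.45 to 9.85). NFATC1, a transcription factor that calcineurin activates, was not detected in KARPAS-299 (5.40, 5.52 and 5.24) or HH (5.30, 5.66 and 5.18), and was at 8.39, 8.24 and 8.23 in SUP-T1, 8.84, 9.02 and 8.82 in HD-MAR-2 and 8.63, 8.82 and 8.86 in JURKAT. NFATC3, its relative, was detected in all lines (means 8.04 to 9.72).

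SOS1, the RAS activator that GRB2 brings in, lay close to the limit of detection. It was not detected in KARPAS-299 (6.14, 5.60 and 5.96) or JURKAT (5.29, 5.52 and 5.26), and was at 6.86, 6.82 and 7.08 in SUP-T1, 6.51, 6.22 and 6.68 in HD-MAR-2 and 6.92, 7.03 and 7.23 in HH. The bounds were therefore small, at most 1.95-fold, although JURKAT was called lower on its fitted value (−1.23 against the mean of the other lines). PPP3CA, a catalytic subunit of calcineurin, had a mean of 6.82 in JURKAT and 8.38 to 8.76 in the other lines. MALT1, the protease of the NF-kappaB branch, had means of 9.58 in KARPAS-299 and 9.78 in HH, against 8.03 to 8.31 elsewhere, and its partner BCL10 had means from 7.18 to 8.06.

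The inhibitors also differed by line. UBASH3A and UBASH3B are related members of a phosphatase family, and both are listed here as inhibitors of the pathway. UBASH3A was detected in HD-MAR-2 (9.83, 9.76 and 9.71), JURKAT (10.45, 10.27 and 10.20) and HH (9.18, 9.34 and 9.26), but not in SUP-T1 (4.68, 4.63 and 4.68) or KARPAS-299 (4.66, 4.82 and 4.79). UBASH3B was detected in HD-MAR-2 (11.57, 11.89 and 11.65), SUP-T1 (9.92, 10.09 and 9.98) and JURKAT (9.93, 9.98 and 9.91), but not in KARPAS-299 (4.60, 4.70 and 4.65) or HH (4.61, 4.63 and 4.64). HD-MAR-2 and JURKAT thus had both genes detected, SUP-T1 and HH had 1 each, and KARPAS-299 had none.

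PAG1, a membrane protein that brings CSK to SRC family kinases, was not detected in HD-MAR-2 (5.00, 5.30 and 5.58) or SUP-T1 (5.11, 5.25 and 5.47). It was at 10.87, 10.92 and 10.94 in HH, 9.47, 9.31 and 9.62 in KARPAS-299 and 9.20, 9.64 and 9.57 in JURKAT. Another PAG1 probe was not detected in KARPAS-299 or JURKAT. CSK, the kinase that locks SRC family kinases, had a mean of 10.26 in HH and 12.07 to 12.51 in the other lines.

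SLA2, an adaptor that promotes removal of the receptor, was detected in HD-MAR-2 (7.65, 7.30 and 7.01) and JURKAT (8.95, 8.45 and 8.57). It was not detected in SUP-T1, KARPAS-299 or HH, where it lay between 4.87 and 5.83. Its relative SLA was detected in all lines (means 11.02 to 12.57). A dimmer SLA probe was detected on 0 of 3 untreated arrays in SUP-T1 and in JURKAT. PTPN6 (SHP-1), a phosphatase of early signalling, had means of 12.33 in SUP-T1 and 12.77 in HD-MAR-2, 10.95 in HH, 10.04 in JURKAT and 8.72 in KARPAS-299. The ubiquitin ligase CBL and the phosphatase PTPN22 varied less, with means from 9.70 to 10.54 and from 9.36 to 10.54. CBLB, a ubiquitin ligase that restrains activation, had means from 6.95 in HH to 9.68 in KARPAS-299. PTPN2, a phosphatase of LCK and JAK kinases, ranged from 8.73 in HH to 11.70 in HD-MAR-2, and RCAN1, an inhibitor of calcineurin, from 9.44 in HH to 11.98 in HD-MAR-2.

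With CHOEP, 6 of the 48 genes were called in 1 line or more (8.5% of all genes), in 10 gene and line pairs, and 4 of 48 in 2 lines or more (1.43% of all genes). They were RCAN1, CBLB, UBASH3B, CD7, GRAP and BLK. In HD-MAR-2, 3 genes were called up (1.86% of all genes) and 1 down (1.8%), against 1 up and 1 down under median scaling and 2 up and 0 down in the authors' normalised values. In SUP-T1, 1 was called up (1.59%) and 0 down (0.817%), against 0 called under median scaling. In KARPAS-299, 0 were up (0.569%) and 1 down (0.729%). In HH, 4 were up (1.92%) and 0 down (0.857%), against 2 called in the authors' normalised values and 2 without background correction. In JURKAT, 0 of 48 were called in either direction (0.0481% of all genes up and 0% down). By limma, 0 of 48 also passed the adjusted p alone in JURKAT (0.12% of all genes up and 0.024% down), and 4 had an unadjusted p under 0.05, 3 of them higher and 1 lower with CHOEP. The median CHOEP effect of the 48 genes was −0.05 in SUP-T1, 0.15 in HD-MAR-2, 0.01 in JURKAT, −0.02 in KARPAS-299 and −0.09 in HH on the log2 scale, where the medians of all genes lay between −0.01 and 0.01.

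**Figure D3:**
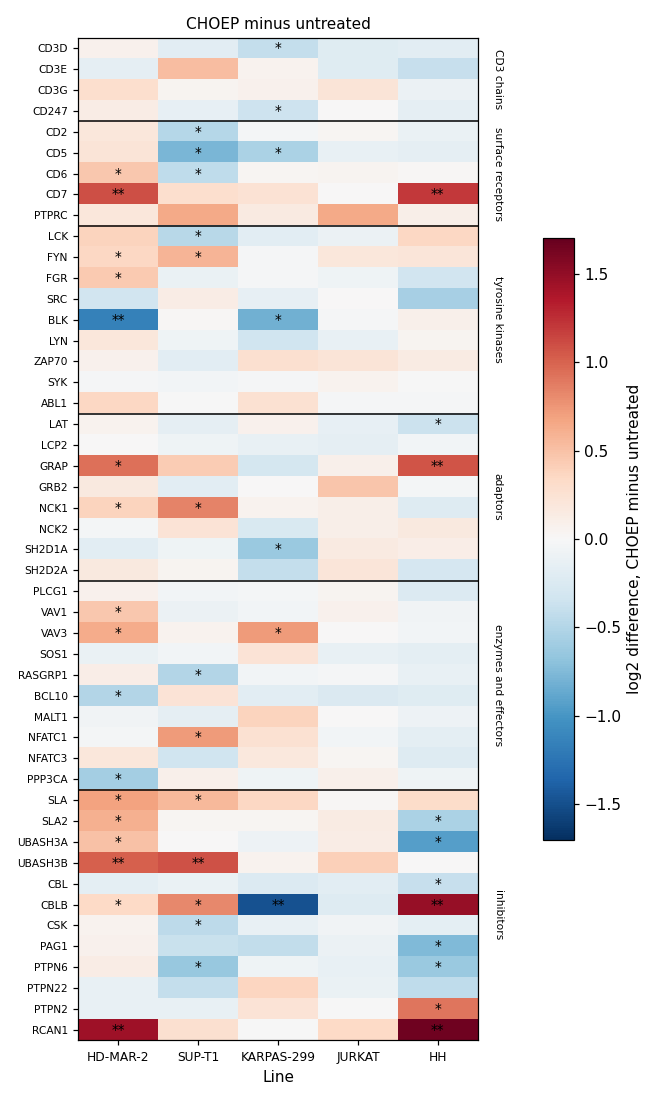
Log2 difference, CHOEP minus untreated, of the 48 genes in each line, with red for higher and blue for lower in CHOEP cultures. A single asterisk marks an adjusted p under 0.05 and a double asterisk a call (2-fold or more as well), and the column of JURKAT holds no mark.

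By adjusted p alone, 14 genes rose and 3 fell in HD-MAR-2 (14.9% and 15.8% of all genes), 6 rose and 7 fell in SUP-T1 (12.3% and 13.9%), 1 rose and 6 fell in KARPAS-299 (2.8% and 4.02%), and 5 rose and 6 fell in HH (9.89% and 9.64%). One of those 6 was SLA2, which no HH array detected. Of these 48 pairs, 17 no longer passed under median scaling, which kept the direction of all 48 and left 3 genes up and 12 down in SUP-T1, with 5 and 3 for HD-MAR-2 and 5 and 3 for HH. In 27 of the 48 pairs the gene had a further probe. Another probe passed in the same direction in 17 of these and in the opposite direction in 1 (BCL10), and in 14 more pairs only a dimmer probe passed. On average over the 5 lines 10 genes rose (17.8% of all genes) and 8 fell (20.1%), against 5 and 14 under median scaling. By the F test the CHOEP effect of 22 of 48 genes differed between lines (35.1% of all genes). Among those that rose on average, FYN, NCK1, SLA, CBLB and PTPN2 did not pass under median scaling.

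RCAN1, the calcineurin inhibitor, had the largest fitted rise of the 48 genes, both on average and in a single line. In HD-MAR-2 it was at 13.46, 13.36 and 13.44 with CHOEP and at 12.29, 11.72 and 11.92 in untreated cultures (difference 1.45, SE 0.12, adjusted p 4.712e-10). In HH it was at 11.22, 11.00 and 11.07 with CHOEP and at 9.51, 9.35 and 9.46 untreated (1.66, SE 0.12, adjusted p 1.9e-11). The groups did not overlap in either line. In SUP-T1 the values were 10.62, 10.54 and 10.74 with CHOEP and 10.54, 10.22 and 10.33 untreated, in JURKAT 11.63, 11.47 and 11.62 with CHOEP and 11.28, 11.25 and 11.16 untreated, and in KARPAS-299 9.72, 9.54 and 9.77 with CHOEP and 9.66, 9.64 and 9.74 untreated. None of these 3 differences passed the test with the brightest probe (0.27 in SUP-T1, 0.34 in JURKAT and −0.01 in KARPAS-299). The average over lines was 0.74 (SE 0.05, adjusted p 2.686e-11). A second RCAN1 probe, not detected in untreated KARPAS-299 or HH and on 1 of 3 untreated SUP-T1 arrays, gave 0.80 in SUP-T1 (adjusted p 0.01685), 1.93 in HD-MAR-2 (adjusted p 9.941e-07) and 1.10 in JURKAT (adjusted p 0.06333). RCAN1 is one of the genes that the study chose on these samples for their response to CHOEP, so its direction is not independent evidence.

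The RCAN1 gene covers chr21:34516442-34615113 on the minus strand (GRCh38.p14) and has 6 RefSeq promoter windows. RCAN1 is known as a target of NFAT, through an internal promoter, and prednisone acts through the glucocorticoid receptor, which is why the 6 windows were searched on both strands for the NFAT core GGAAA and for AGAACA, the consensus half-site of that receptor. The motifs can share 1 base at most. GGAAA occurs in 61.2% of all promoter windows and AGAACA in 14.8%. One internal window held 5 GGAAA matches, a number reached by 0.74% of all windows, and no AGAACA. A neighbouring one held 2 AGAACA matches, reached by 1.81% of windows, and 1 GGAAA. The 3 windows farthest upstream held neither motif. Shown are these 2 internal windows, which had the most matches of each motif, and the outermost window for comparison. Capitals mark both motifs or their reverse complements (TTTCC and TGTTCT). The shares take each window alone, although these 2 windows were picked from 6 for having the most matches. The windows of CBLB, UBASH3B, GRAP and LCK were searched as well. They held at most 1 GGAAA each, and AGAACA occurred only in that of GRAP, with 1 match. A match of letters describes the window and does not show that a factor binds there. A further RCAN1 probe, assigned to a different RefSeq transcript from the analysed RCAN1 probes, was detected on 0 of 30 arrays and was not analysed. Which RCAN1 window gives rise to the transcripts that any of these probes measure was not tested.
RCAN1 internal window with 5 GGAAA, chr21:34526773-34527072, minus strand: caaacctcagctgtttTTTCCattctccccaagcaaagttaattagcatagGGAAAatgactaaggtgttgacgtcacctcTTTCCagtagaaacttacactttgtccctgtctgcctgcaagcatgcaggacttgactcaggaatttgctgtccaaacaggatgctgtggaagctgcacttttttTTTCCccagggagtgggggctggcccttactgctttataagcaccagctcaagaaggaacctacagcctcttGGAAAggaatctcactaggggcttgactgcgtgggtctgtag
RCAN1 internal window with 2 AGAACA, chr21:34525418-34525717, minus strand: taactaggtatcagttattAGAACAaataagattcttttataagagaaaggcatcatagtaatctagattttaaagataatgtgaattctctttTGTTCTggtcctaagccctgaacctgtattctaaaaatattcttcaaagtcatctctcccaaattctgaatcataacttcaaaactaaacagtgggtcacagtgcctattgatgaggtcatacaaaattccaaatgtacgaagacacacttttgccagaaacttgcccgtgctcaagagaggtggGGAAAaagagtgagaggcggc
RCAN1 outermost window, chr21:34615064-34615363, minus strand: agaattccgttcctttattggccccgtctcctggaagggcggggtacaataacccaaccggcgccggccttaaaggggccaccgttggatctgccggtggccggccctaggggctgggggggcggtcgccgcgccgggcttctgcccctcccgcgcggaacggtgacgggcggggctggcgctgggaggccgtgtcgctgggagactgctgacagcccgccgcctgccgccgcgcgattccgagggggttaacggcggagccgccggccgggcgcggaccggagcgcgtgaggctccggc

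CBLB moved in opposite directions in different lines. In HH it was at 8.29, 8.52 and 8.49 with CHOEP and at 7.00, 6.86 and 7.00 untreated (1.48, SE 0.12, adjusted p 6.565e-10). In KARPAS-299 it was at 8.21, 8.13 and 8.24 with CHOEP and at 9.53, 9.74 and 9.75 untreated (−1.48, SE 0.12, adjusted p 1.693e-09). In both lines every CHOEP array lay on 1 side of every untreated array. SUP-T1 had 9.79, 10.05 and 9.97 with CHOEP and 9.10, 9.05 and 9.23 untreated, a rise of 0.81 (adjusted p 2.046e-05), and HD-MAR-2 9.37, 8.88 and 9.20 with CHOEP and 8.74, 8.85 and 8.83 untreated, a rise of 0.34 (adjusted p 0.04044). JURKAT had 7.91, 8.18 and 8.28 with CHOEP and 8.54, 8.17 and 8.32 untreated, overlapping, with a difference of −0.22. CBLB differed between lines with the smallest F test p of the 48 genes (adjusted p 8.564e-12). Untreated HH had the lowest and untreated KARPAS-299 the highest level of the 5 lines, and with CHOEP these 2 lines lay between 8.13 and 8.52.

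UBASH3B rose in 2 of the 3 lines that expressed it. In HD-MAR-2 it was at 12.67, 12.75 and 12.75 with CHOEP and at 11.57, 11.89 and 11.65 untreated (1.02, SE 0.09, adjusted p 1.877e-09). In SUP-T1 it was at 11.07, 11.21 and 10.97 with CHOEP and at 9.92, 10.09 and 9.98 untreated (1.08, SE 0.09, adjusted p 9.576e-10). In JURKAT it was at 10.28, 10.43 and 10.33 with CHOEP and at 9.93, 9.98 and 9.91 untreated, without overlap, a difference of 0.41 that just missed the test (adjusted p 0.05039). KARPAS-299 and HH did not have it detected on any CHOEP or untreated array (4.60 to 4.73). The second UBASH3B probe gave 1.02 in SUP-T1 and 1.06 in HD-MAR-2. Like RCAN1, UBASH3B is one of the genes that the study chose on these samples for their response to CHOEP. Its direction is therefore not independent evidence. The HD-MAR-2 call lay at the fold limit and was lost without untreated replicate 1 (0.95) or without untreated replicate 3 (0.99), and under median scaling, where HD-MAR-2 gave 0.73 and SUP-T1 0.77. With the authors' normalised values the HD-MAR-2 call was lost too.

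CD7 rose in HD-MAR-2 and HH. In HD-MAR-2 it was at 12.29, 12.22 and 12.28 with CHOEP and at 10.73, 11.44 and 11.33 untreated (1.10, SE 0.27, adjusted p 0.00299). In HH it was at 6.98, 7.08 and 7.19 with CHOEP, detected on 3 of 3 arrays, and at 5.65, 5.39 and 6.60 untreated, detected on 1 of 3 (1.20, SE 0.27, adjusted p 0.002048). The groups did not overlap, but 1 untreated array stood apart in each line, replicate 1 in HD-MAR-2 and replicate 3 in HH. Without untreated replicate 1 the HD-MAR-2 difference was 0.88, and without untreated replicate 2 the HH difference was 0.96, both below the fold limit, while without untreated replicate 3 the HH difference was 1.56. Median scaling also ended the HD-MAR-2 call (0.75). The HH call was lost with the authors' normalised values and without background correction, with differences down to 0.61. In SUP-T1 the CHOEP arrays (11.54, 12.02 and 11.04) overlapped the untreated ones (11.04, 11.38 and 11.34), as they did in JURKAT (11.64, 11.65 and 11.54 with CHOEP, 11.77, 11.50 and 11.55 untreated). In KARPAS-299 it was at 5.30, 6.35 and 5.68 with CHOEP, with 1 of 3 arrays detected, and at 5.18, 5.97 and 5.45 untreated, none detected.

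GRAP was called up in HH, where it was at 7.20, 7.13 and 7.28 with CHOEP and at 6.63, 6.14 and 5.63 untreated (1.07, SE 0.17, adjusted p 4.72e-05). It was detected on 3 of 3 CHOEP and 1 of 3 untreated arrays, and without untreated replicate 3 the difference was 0.82. The call was also lost with the authors' normalised values, without background correction and under median scaling, with differences down to 0.56. In HD-MAR-2 it was at 10.68, 10.68 and 10.75 with CHOEP and at 9.73, 9.85 and 9.74 untreated, without overlap, a rise of 0.93 that stayed under the fold limit (adjusted p 0.0001669). The other lines did not pass the test, with 0.43 in SUP-T1, −0.30 in KARPAS-299 and 0.08 in JURKAT. A second GRAP probe was not detected in untreated HD-MAR-2, SUP-T1, KARPAS-299 or HH, and gave 0.21 in HH (adjusted p 0.5437). GRAPL, a closely related gene, lies near GRAP, and whether the probe separates them was not tested.

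BLK was the one kinase called, and it fell. In HD-MAR-2 it was at 7.48, 7.46 and 7.67 with CHOEP and at 8.75, 8.60 and 8.73 untreated (−1.15, SE 0.10, adjusted p 1.479e-09). In KARPAS-299 it was at 9.35, 9.38 and 9.64 with CHOEP and at 10.28, 10.40 and 10.12 untreated, so that it fell by 0.81 without reaching 2-fold (adjusted p 1.472e-06). Neither line overlapped. In JURKAT (9.50, 9.64 and 9.74 with CHOEP, 9.72, 9.62 and 9.61 untreated) and HH (12.38, 12.30 and 12.28 with CHOEP, 12.32, 12.16 and 12.22 untreated) the groups overlapped, and SUP-T1 did not have BLK detected. HH, with the most BLK, showed a difference of 0.08. The HD-MAR-2 call was lost with the authors' normalised values and without background correction, with differences as small as −0.87.

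**Figure D4:**
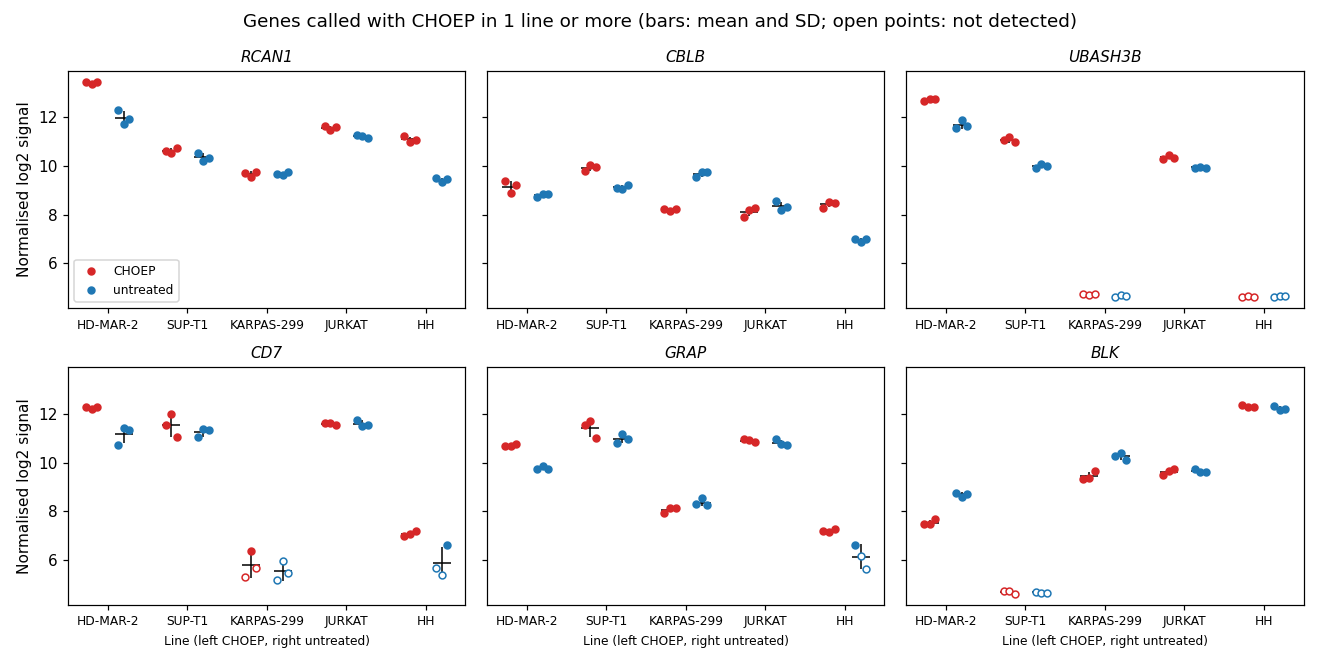
Normalised log2 signal of RCAN1, CBLB, UBASH3B, CD7, GRAP and BLK on every array, for each line with CHOEP in red at the left and untreated in blue at the right. Black bars give the mean and SD of 3 arrays and open points are arrays without detection. CBLB stands higher with CHOEP in HH (8.29 to 8.52 against 6.86 to 7.00) and lower in KARPAS-299 (8.13 to 8.24 against 9.53 to 9.75).

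Among the CD3 chains 0 of 4 were called in any line. CD3D fell by 0.40 in KARPAS-299 (adjusted p 0.009216), at 12.35, 12.14 and 12.22 with CHOEP and at 12.49, 12.75 and 12.65 untreated, and CD247 fell by 0.35 there (adjusted p 0.01479). On average CD3D fell by 0.18 (adjusted p 0.002165) and CD247 by 0.10 (adjusted p 0.042). Another CD3D probe fell by 0.98 in SUP-T1 and by 0.82 in KARPAS-299 but rose by 0.55 in HD-MAR-2 (adjusted p 0.01799). A second CD247 probe rose by 0.36 in HD-MAR-2 (adjusted p 0.005304) and fell by 0.49 in KARPAS-299 (adjusted p 0.001003). CD3E and CD3G, undetected in KARPAS-299, passed the test in no line.

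Of the surface receptors, CD5 fell by 0.77 in SUP-T1 (adjusted p 2.641e-05) and by 0.53 in KARPAS-299 (adjusted p 0.004797). CD2 fell by 0.49 in SUP-T1 (adjusted p 0.00074). CD6 rose by 0.45 in HD-MAR-2 (adjusted p 0.01011) and fell by 0.44 in SUP-T1 (adjusted p 0.01537). None of these reached 2-fold. PTPRC passed the test in no line.

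LCK, FYN, FGR, SRC and ZAP70, kinases that the study names, did not reach 2-fold with CHOEP with any kept probe. LCK in SUP-T1 was at 11.00, 10.83 and 10.58 with CHOEP and at 11.37, 11.27 and 11.20 untreated, so that it fell by 0.48 (SE 0.18, adjusted p 0.04971). In HD-MAR-2 LCK was at 11.00, 10.85 and 11.05 with CHOEP and at 10.86, 10.42 and 10.49 untreated (0.37, adjusted p 0.1184), and in JURKAT at 11.07, 11.06 and 11.26 with CHOEP and at 11.33, 11.14 and 11.21 untreated (−0.10, adjusted p 0.9988). Another LCK probe rose by 0.80 in HD-MAR-2 (adjusted p 0.007996) and fell by 0.75 in SUP-T1 (adjusted p 0.01404). LCK was not detected on the CHOEP arrays of KARPAS-299 (5.36 to 5.52) or HH (5.40 to 6.21) either. The effect of CHOEP on LCK differed between lines by the F test (adjusted p 0.03104).

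FYN rose in SUP-T1, where it was at 11.06, 10.98 and 11.02 with CHOEP and at 10.50, 10.33 and 10.48 untreated (0.58, SE 0.13, adjusted p 0.001855). It also rose in HD-MAR-2, at 12.09, 12.10 and 12.04 with CHOEP and 11.74, 11.68 and 11.75 untreated (0.36, adjusted p 0.04603). In KARPAS-299, JURKAT and HH its differences were −0.02, 0.19 and 0.21, none past the test. The other 3 FYN probes did not pass in HD-MAR-2 (0.17, 0.18 and 0.10), 1 of them rose in SUP-T1 (0.63, adjusted p 0.001607), and a different one rose by 0.53 in KARPAS-299 (adjusted p 0.02221). FGR rose in HD-MAR-2, at 9.75, 9.79 and 9.83 with CHOEP and 9.27, 9.46 and 9.30 untreated (0.44, SE 0.15, adjusted p 0.02577, not passed by its other 2 probes), and in SUP-T1 it was at 10.48, 10.71 and 10.20 with CHOEP and 10.59, 10.56 and 10.57 untreated (−0.11).

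SRC passed in no line, with differences between −0.56 in HH (adjusted p 0.05797) and 0.12 in SUP-T1, and the brightest ZAP70 probe in none, with differences between −0.18 in SUP-T1 and 0.28 in KARPAS-299. Another ZAP70 probe rose by 0.62 in KARPAS-299 (adjusted p 0.03075). PLCG1 passed in none, with differences between −0.23 in HH and 0.08 in HD-MAR-2. LAT passed in HH alone, at 9.11, 9.16 and 9.22 with CHOEP and 9.45, 9.53 and 9.63 untreated (−0.37, SE 0.12, adjusted p 0.03147), and not with its other 2 probes. LYN in KARPAS-299 differed by −0.34 (adjusted p 0.06201) and SYK in JURKAT by 0.05 (adjusted p 0.9988). A measured difference of transcript says nothing about phosphorylation of these kinases, which arrays do not measure.

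Other adaptors and effectors passed below the fold limit. NCK1 rose by 0.84 in SUP-T1 (adjusted p 3.126e-06) and by 0.38 in HD-MAR-2. A second NCK1 probe, detected on 30 of 30 arrays, gave 0.07 in SUP-T1 (adjusted p 0.749) and 0.72 in HD-MAR-2. VAV3 rose by 0.73 in KARPAS-299 (adjusted p 1.411e-06) and by 0.63 in HD-MAR-2 (adjusted p 4.294e-06), and VAV1 by 0.45 in HD-MAR-2. NFATC1 rose by 0.72 in SUP-T1 (adjusted p 0.0004368), where RASGRP1 fell by 0.49 (adjusted p 0.002485). SH2D1A fell by 0.63 in KARPAS-299 (adjusted p 0.0003377). PPP3CA fell by 0.58 and BCL10 by 0.50 in HD-MAR-2 (adjusted p 0.003447 and 0.03516). A second BCL10 probe, detected on 2 of 3 untreated arrays there, rose by 0.57 in the same line (adjusted p 0.02985), so the direction of BCL10 is not settled, and a second PPP3CA probe did not pass (−0.38).

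The inhibitors, 12 of the 48 genes, held 6 of the 10 called pairs, those of RCAN1, CBLB and UBASH3B. Counted as genes, RCAN1, CBLB and UBASH3B of the 12 inhibitors were called in 1 line or more, as were 8.5% of all genes. The share of all gene and line pairs that were called is not given here. The pair of CBLB in KARPAS-299 was a fall, and RCAN1 and UBASH3B were chosen by the study on these samples. On average over the lines 5 of 12 inhibitors rose and 4 of 12 fell (17.8% and 20.1% of all genes). Of those that rose, CBLB, SLA and PTPN2 did not pass under median scaling. UBASH3A fell in HH, at 8.19, 8.43 and 8.37 with CHOEP and 9.18, 9.34 and 9.26 untreated (−0.93, SE 0.10, adjusted p 3.452e-08), and rose in HD-MAR-2, at 10.24, 10.19 and 10.37 with CHOEP and 9.83, 9.76 and 9.71 untreated (0.50, adjusted p 0.0002691). PTPN2 rose in HH, at 9.64, 9.49 and 9.79 with CHOEP and 8.73, 8.69 and 8.76 untreated (0.91, SE 0.12, adjusted p 1.532e-06). A second PTPN2 probe gave 1.43 there, past the fold limit, and another was not detected in untreated HH.

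PAG1 fell in HH, at 10.26, 10.11 and 10.13 with CHOEP and 10.87, 10.92 and 10.94 untreated (−0.75, adjusted p 0.0004049), and a second probe gave −1.04. SLA rose by 0.68 in HD-MAR-2 (adjusted p 4.426e-05) and by 0.56 in SUP-T1 (adjusted p 0.0005568), with another probe at 1.81 in HD-MAR-2. PTPN6 fell by 0.65 in SUP-T1 (adjusted p 0.0008092) and by 0.63 in HH (adjusted p 0.001431). CSK fell by 0.44 in SUP-T1 and CBL by 0.40 in HH. SLA2 rose by 0.60 in HD-MAR-2 (adjusted p 0.007288). In HH SLA2 was below detection in both CHOEP and untreated cultures, so no fold is given. PTPN22 passed in no line. Counting any probe of a gene, 5 genes were called in HD-MAR-2 and 6 in HH. The share of all genes under this rule is not given here, and a gene with several probes has more chances of a call.

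Of 40 further genes of the pathway, 35 could be tested. On average 12 of 35 rose and 5 of 35 fell (17.8% and 20.1% of all genes), and 0 of 35 were called in 2 lines or more (1.43%). The 4 calls in single lines, named here after their values were seen, were DGKA, a diacylglycerol kinase, in SUP-T1 (up by 1.15, adjusted p 4.463e-06), RHOH, a small GTPase needed for ZAP70 function, in KARPAS-299 (up by 2.14, adjusted p 6.055e-13), the scaffold GAB2 in HH (at least 2.93-fold up, adjusted p 2.964e-12, not detected in untreated cultures), and the lipid kinase subunit PIK3CD in HH (−1.03, adjusted p 5.577e-05). Markers of other cell types moved in places. Of 7 B-cell markers 2 could be tested, CD79A and CD79B, and both rose on average over the lines. Their summed normalised signal on the linear scale was 447.7 to 547.4 with CHOEP and 299.9 to 363.7 untreated in HD-MAR-2, and 930.2 to 1251 with CHOEP and 722.3 to 982.3 untreated in HH. The 5 myeloid markers tested summed to 2380 to 2834 with CHOEP and 1450 to 2059 untreated in HD-MAR-2, without overlap, and CD68 rose there by 0.69 (adjusted p 0.001463). CD14, LYZ, CSF1R and ITGAM did not pass in HD-MAR-2 (0.15, 0.28, −0.12 and −0.28). Their untreated means there were 5.26 to 7.23, against 10.47 for CD68, so the sum follows mainly CD68. Of 5 NK-cell markers 3 could be tested, and KLRD1 was called up in SUP-T1 (at least 1.34-fold, not detected in untreated cultures) and in KARPAS-299, where this probe was detected on 3 of 3 CHOEP and 0 of 3 untreated arrays and no fold is given. The part of these markers in the results above was not tested.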

How the data were processed

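Gene expression in 30 cultures was measured with 1-colour Illumina HumanHT-12 v4 arrays. The authors deposited signal intensities read with BeadStudio (version 3 in the submitters' processing notes), not normalised. Each intensity has a deposited detection p-value, computed by that software against negative controls. A second deposited table holds log2 values, which the authors normalised with lumi (robust spline), used here as an alternative. The labels name Trizol with column clean-up for the RNA and the paper a column kit. Groups and replicate numbers come from the sample titles.

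Of 48107 probes 47323 had values. Probes were named from the platform table, with symbols updated through Entrez numbers to RefSeq (30113 probes with 1 symbol, 8 with several, 17202 with none), and only the first kind named a gene. The neqc function of limma corrected the background of the intensities, quantile normalised them and took log2 (version 3.58.1, R 4.3.3, offset 16). All 10 groups entered 1 limma fit with 20 residual degrees of freedom, and p was adjusted over all 22652 probes with detection p under 0.01 on 3 arrays. A gene was represented by its brightest kept probe (29 members had several). For a gene detected by none of its probes in a group, the fold is a bound against, on each array, the lowest detected signal or the probe's own if higher. Calls use fitted values. Arrays were not identical (highest correlation 0.99582), and the number of arrays limits the precision. P-values rest on the spread between cultures within a group, pooled over the 10 groups, and not on that of 1 line alone.

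Same-numbered CHOEP and untreated arrays were not treated as pairs, because their residuals correlated above 0.1 in 3 of 15 cases. Values on single arrays are given for genes detected fully in 1 line and not in another, for called genes, and for the kinases and partners that the study names. Members, marker lists and other lists were chosen with earlier results of these data known. Alternatives were the deposited normalised values, no background correction, median scaling, no detection filter, calls from any probe, detection on every array of 1 group, a replicate block, an intensity trend with robust variance, each line alone, no fold threshold, and each array left out. The fit was tested on simulated data. Promoter sequences are RefSeq windows (GRCh38.p14), available for 37 of the 52 genes, with CD3E and CD3G not among them.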

Additional observations from a re-analysis of the deposited data

Results flagged for a closer look

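For 22 of the 48 genes, limma's moderated F test of the difference in the CHOEP effect between the 5 lines passed (35.1% of all genes). The number was 13 under median scaling and 33 with the authors' normalised values. The adjusted p of this test was 8.564e-12 for CBLB, 5.884e-09 for RCAN1, 4.782e-08 for UBASH3B, 6.104e-08 for BLK and 1.21e-07 for UBASH3A. It was 1.087e-05 for VAV3, 6.095e-05 for PTPN2, 9.658e-05 for NCK1, 0.0002862 for GRAP, 0.0004603 for CD5, 0.002018 for SH2D1A, 0.005101 for PTPN6, 0.006239 for NFATC1, 0.00722 for CD2, 0.008259 for SLA2, 0.009422 for CD6, 0.01786 for SLA, 0.01876 for PAG1, 0.03104 for LCK, 0.03638 for CD7, 0.0397 for CD247 and 0.042 for RASGRP1. Of these genes, 12 (LCK, CD2, CD6, CD7, VAV3, NFATC1, RASGRP1, SLA2, UBASH3A, UBASH3B, BLK and PAG1) were not detected in at least 1 untreated line, and 10 were detected in every untreated line. UBASH3A was lower with CHOEP in HH (−0.93) and higher in HD-MAR-2 (0.50). The doses were those of each line's own IC50, and dose and line cannot be told apart.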

How the results depend on the processing

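No result of the 10 called gene and line pairs turned its direction under any alternative, and 4 of 10 (RCAN1 in HD-MAR-2 and HH, CBLB in KARPAS-299 and HH) kept their calls under all alternatives and every left-out array. The other 6 pairs lost their call somewhere. With the authors' normalised values the called genes numbered 2 for HD-MAR-2 and 2 for HH, and CD7 in HH (0.62), BLK in HD-MAR-2 (−0.91), GRAP in HH (0.57) and UBASH3B in HD-MAR-2 (0.98) fell below the fold limit. Without background correction 2 were called in HH. Median scaling, which shifted the median CHOEP difference of all genes by −0.18 in SUP-T1 and −0.20 in HD-MAR-2, left 0 called in SUP-T1, 2 for HD-MAR-2, and 13 genes whose CHOEP effect differed between lines. With no fold threshold, 17 genes passed in HD-MAR-2, 13 in SUP-T1, 7 in KARPAS-299 and 11 in HH, and untreated lines stood apart in 41 genes in HD-MAR-2, 42 in SUP-T1, 42 in JURKAT and 44 in HH. The shares of all genes that set each untreated line apart without a fold threshold are not given here. By the F test 95.5% of all genes differed among the untreated lines. Leaving out 1 array gave 2 to 4 calls in HD-MAR-2, 3 to 4 in HH, 0 in JURKAT and 1 in both KARPAS-299 and SUP-T1, with 2 in HD-MAR-2 without its untreated replicate 1, and 18 to 24 genes differing between lines. This last number was 33 with the authors' values and 30 without background correction. With the replicate number as a block, counts of called genes were unchanged in number (4, 1, 1, 0 and 4), and 21 genes differed between lines. Of the 130 calls of an untreated line against the others, 0 changed direction or lost the adjusted p under another scaling. The fold limit was not part of that check. Over the alternatives, the genes called fell from 25 to as few as 21 in HD-MAR-2 and from 23 to 18 in SUP-T1. The lowest numbers were 28 in KARPAS-299 (from 32), 18 in JURKAT (from 23) and 25 in HH (from 27). The cause of these changes was not tested.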
